A study of Mus musculus with 5 samples.

Results

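Lipid-associated macrophages (LAM) are macrophages that take up and break down lipid in fat-laden tissue, and their nuclei were described here in mouse liver by single-nucleus RNA-seq. A nucleus was counted as LAM when it held at least 300 genes, under 15% mitochondrial UMIs (unique molecular identifiers, 1 per captured RNA molecule), no UMI of Hnf4a, Ptprb, Pkhd1 or Col3a1, at least 1 UMI of Cd84, Ms4a7, Cyth4, Lair1 or Ptprc, and at least 2 summed UMIs of the 4 marker genes Gpnmb, Trem2, Mmp12 and Adam8. This gave 613 LAM nuclei of 57080 barcodes. All libraries held nuclei sorted by flow cytometry from livers of male wild-type C57BL6/J mice. From an age of 10 to 12 weeks the mice received, for 5 months, either regular chow (3 libraries) or a diet rich in fat (40 kcal%) with added fructose (20 kcal%) and cholesterol (2%) that leads to metabolic dysfunction-associated steatohepatitis (MASH, 2 libraries). Whether a library held 1 mouse or a pool was not stated. Every p-value below thus measures only how differences between populations of nuclei vary between libraries.

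In fatty liver disease, macrophages of this kind gather around dying, lipid-filled hepatocytes. They carry TREM2, a surface receptor for lipids that signals through TYROBP, and the lysosomal glycoprotein GPNMB, and they digest engulfed lipid in acid lysosomes before cholesterol is exported. Kupffer cells, the resident macrophages of the liver, are lost in part during steatohepatitis and replaced by macrophages that arise from blood monocytes, so both were set beside the LAM nuclei here.

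The bases before the start sites of a few of these genes are shown, because Gpnmb and Mmp12 define the nuclei. Those of Ctsd, Itgax and Emp1, which were higher in LAM nuclei than in nuclei with Kupffer cell genes, are shown too. They are the 250 bases upstream of RefSeq start sites on GRCm38.p6, written 5′ to 3′ on the strand of the gene. Capitals mark 3 motifs searched on both strands: the E-box CACGTG, bound by the MiT/TFE family of lysosomal regulators among others, the M-box core TCATGTG, which MITF can bind, and the AP-1 site TGAGTCA.
Gpnmb, chr6:49036268-49036517, plus strand: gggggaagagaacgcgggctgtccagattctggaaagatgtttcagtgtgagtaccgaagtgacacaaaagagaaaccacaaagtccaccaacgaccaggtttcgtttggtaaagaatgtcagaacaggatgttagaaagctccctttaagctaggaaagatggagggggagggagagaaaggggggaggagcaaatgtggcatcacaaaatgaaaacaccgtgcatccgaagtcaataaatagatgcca
Mmp12, second start site, chr9:7347124-7347373, plus strand: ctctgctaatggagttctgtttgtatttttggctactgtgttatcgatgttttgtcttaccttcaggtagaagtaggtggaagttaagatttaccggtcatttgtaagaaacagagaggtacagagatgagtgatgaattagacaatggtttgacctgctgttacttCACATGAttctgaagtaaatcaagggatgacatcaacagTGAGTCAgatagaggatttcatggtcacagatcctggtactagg
Ctsd, chr7:142387828-142388077, minus strand: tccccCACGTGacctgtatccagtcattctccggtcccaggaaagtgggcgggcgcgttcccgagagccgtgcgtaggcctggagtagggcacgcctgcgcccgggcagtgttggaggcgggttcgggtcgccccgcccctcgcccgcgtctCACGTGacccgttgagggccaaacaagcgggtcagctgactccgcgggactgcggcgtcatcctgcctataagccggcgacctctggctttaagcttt
Itgax, chr7:128129300-128129549, plus strand: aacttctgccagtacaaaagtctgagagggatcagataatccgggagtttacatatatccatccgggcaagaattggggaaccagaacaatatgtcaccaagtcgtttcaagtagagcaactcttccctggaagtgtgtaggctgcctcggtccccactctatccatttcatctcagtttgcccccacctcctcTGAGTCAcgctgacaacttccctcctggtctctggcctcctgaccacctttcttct
Emp1, first start site, chr6:135362681-135362930, plus strand: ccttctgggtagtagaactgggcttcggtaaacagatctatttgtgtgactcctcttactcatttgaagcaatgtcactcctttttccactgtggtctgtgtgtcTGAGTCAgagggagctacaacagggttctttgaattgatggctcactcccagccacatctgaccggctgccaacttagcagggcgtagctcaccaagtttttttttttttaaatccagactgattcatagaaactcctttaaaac
The Ctsd window held 2 E-boxes, which began 245 and 98 bases before the start site. The Mmp12 window held the M-box core on the other strand, as CACATGA, 83 bases before the start site and the AP-1 site 44 bases before it. The Gpnmb window, the window of the first Mmp12 start site and that of the second Emp1 start site held none of the 3 motifs, which says only that these letters are not in them. Ctsd, Itgax and Emp1 each held a motif in a window, so they do not stand for the other genes that were higher.

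Sequencing yielded from 8633 to 12935 barcodes and from 35612373 to 49137377 UMIs per library. MASH replicate 1 stood apart by mitochondrial RNA: 28.4% of its nuclei with at least 300 genes were over the limit, against 3.10% in MASH replicate 2 and 0.948% to 5.73% in chow. Between 108 and 153 barcodes of a library also occurred in another library, among them those of 0 LAM nuclei in chow and of 4 and 3 in the MASH replicates. LAM nuclei were somewhat deeper than the nuclei they are compared with. Their median was 1351 UMIs in MASH replicate 1 and 1436 in MASH replicate 2, beside 1232.5 and 1185 in nuclei with Kupffer cell genes. In nuclei with monocyte genes the median was 1226.5 and 958 UMIs.

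LAM nuclei were found almost entirely in MASH livers. There were 259 in MASH replicate 1 and 341 in MASH replicate 2, against 6, 1 and 6 in the chow replicates. They made up 2.02% (95% exact Clopper-Pearson interval 1.78 to 2.28) and 2.98% (2.67 to 3.30) of nuclei with at least 300 genes in the MASH replicates, and 0.0701%, 0.00775% and 0.0547% in chow. The mean share was 2.50% ± 0.676 (SD, n = 2) in MASH and 0.0442% ± 0.0325 (SD, n = 3) in chow, and the groups did not overlap. No test was made, since the 4 genes were chosen with the diet difference known. The interval covers counting error only. Kupffer-gene nuclei (the same filters, at least 1 UMI of Clec4f, Cd163, Cd5l or Vsig4 and no UMI of the 4 marker genes) numbered 92, 76 and 145 in chow and 344 and 193 in MASH. LAM nuclei thus formed 43.0% and 63.9% of the 2 populations together in the MASH replicates, and 1.30% to 6.12% in chow.

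**Figure D1:**
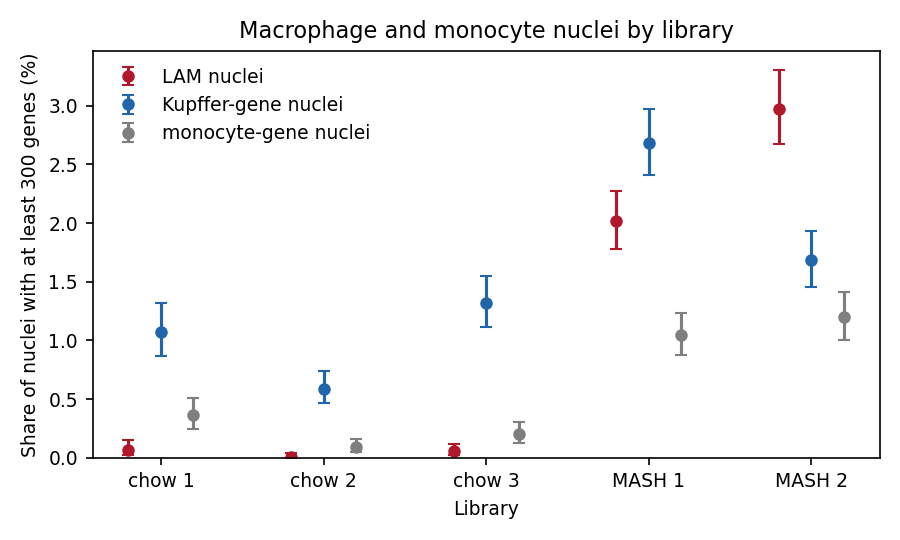
Share of nuclei with at least 300 genes (y axis, percent) that were LAM, Kupffer-gene or monocyte-gene nuclei in each of the 5 libraries (x axis), with 95% exact binomial intervals as bars. LAM nuclei lay below 0.1% in every chow library and at 2.02% and 2.98% in MASH.

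Marker UMIs were also counted in nuclei that should lack these genes. In MASH replicates 1 and 2, at least 2 marker UMIs occurred in 2.52% and 2.08% of hepatocyte nuclei (median 4516.5 and 4863.5 UMIs), in 3.46% and 1.82% of endothelial nuclei (median 1259 and 1127 UMIs), and in 0 of 39 and 1 of 67 lymphoid nuclei. In all immune nuclei the share was 17.1% and 21.9%, at medians of 1276.5 and 1198 UMIs. The share in immune nuclei was therefore several times that in endothelial nuclei of like depth.

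Among the 4 genes, Mmp12 (macrophage elastase) and Gpnmb carried most of the signal. In LAM nuclei of MASH replicates 1 and 2, Gpnmb was seen in 62.9% and 76.0% of nuclei, Mmp12 in 70.3% and 51.6%, Trem2 in 37.8% and 48.1%, and Adam8, a membrane-bound protease, in 16.2% and 31.7%. The replicates thus differed in mix, with more Mmp12-bearing nuclei in the first and more of the other 3 genes in the second. A nucleus seldom showed them all. In MASH replicate 1, 85 nuclei (32.8%) had UMIs of 1 marker gene only and 5 nuclei of all 4. In MASH replicate 2 these numbers were 89 (26.1%) and 22. Mmp12 was the only marker gene in 50 and 21 nuclei, Gpnmb in 22 and 53. Of the 13 chow nuclei, 11 had UMIs of 1 marker gene only, in 5 of them Adam8, and Gpnmb was detected in 2.

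The threshold of 2 UMIs fell within a graded range of marker counts. Exactly 2 summed UMIs were held by 110 and 114 LAM nuclei of the MASH replicates, while 244 and 227 immune nuclei with 1 UMI stayed outside. At least 1 marker UMI occurred in 33.1% and 36.5% of immune nuclei, and in 13.6% and 8.65% of endothelial nuclei. Whether the nuclei themselves are graded, or the counts reflect sparse capture or free RNA, was not tested. Genes that the rule did not use followed the number of marker UMIs to different degrees. Lpl, the lipase that frees fatty acids from lipoproteins, was at 266 CPM (UMIs scaled to a common total per sum) in immune nuclei of MASH replicate 1 with 0 marker UMIs, 642 with 1, 993 with 2, 931 with 3 and 1111 with 4 or more. In MASH replicate 2 the same steps gave 319, 1072, 1443, 1576 and 2223 CPM. Spp1, which encodes osteopontin, showed no such order, at 325 and 277 CPM for 0 and for 4 or more marker UMIs in MASH replicate 1 and 584 and 559 in MASH replicate 2. The 1015 and 987 immune nuclei with 0 marker UMIs held 344 and 193 Kupffer-gene and 134 and 137 monocyte-gene nuclei, beside other immune nuclei. Whether the mix of cell types differed between the steps was not tested.

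**Figure D2:**
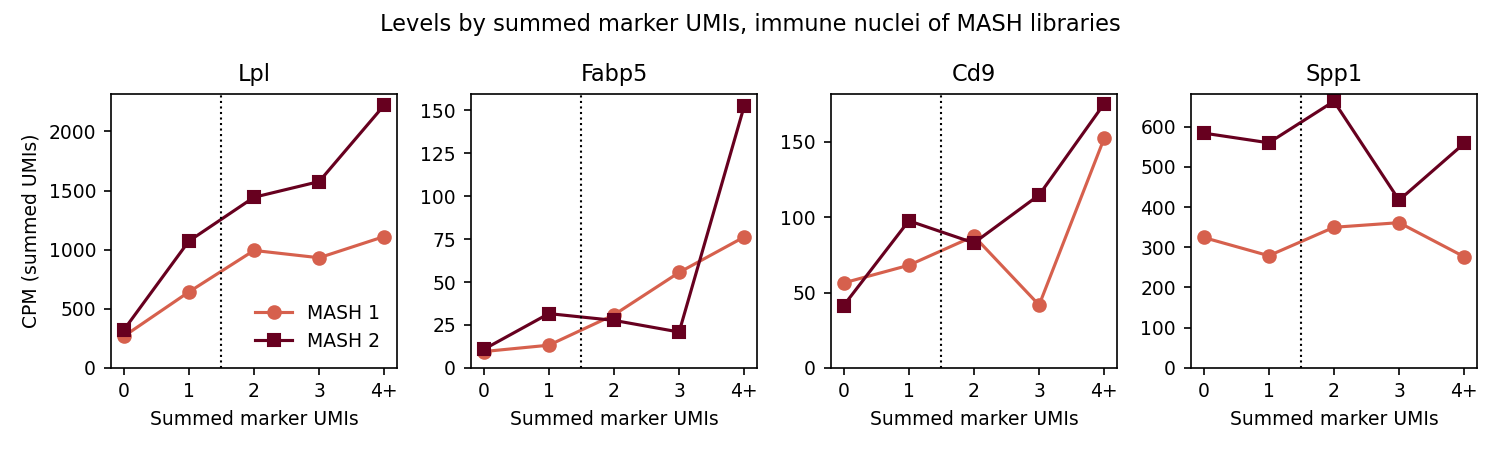
Level of Lpl, Fabp5, Cd9 and Spp1 (y axes, CPM of summed UMIs) in immune nuclei of the 2 MASH libraries, grouped by summed UMIs of Gpnmb, Trem2, Mmp12 and Adam8 (x axis). The dotted line marks the LAM threshold. Lpl was lowest at 0 marker UMIs and highest at 4 or more in both libraries, while Spp1 had no steady order.

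LAM nuclei were next compared with the Kupffer-gene nuclei of the same MASH libraries, to ask which other genes set them apart. UMIs were summed per library and population and tested with edgeR's quasi-likelihood test with the library as a block. Genes of the rule were left out. Of 6635 genes tested, 73 (1.1%) were higher and 25 (0.377%) lower in LAM nuclei at an adjusted p under 0.05 (98 or 1.48% in either direction), and the median log2 fold change of all genes was -0.004. With 2 MASH libraries the spread is poorly known, and 1 of 3 residual degrees of freedom came from the difference of chow replicates 1 and 3. The test also drew on the spread of the other genes, worth a median of 39.2 degrees of freedom. The monocyte-gene sum of chow replicate 1 carried 101200 CPM of neutrophil genes, against at most 190 CPM in every other sum. Fitted on the MASH libraries only, 520 genes were called (267 higher and 253 lower), among them all 98. Without the block the count was 2, with DESeq2 1 and without either MASH library 0 (29 and 9 genes at an unadjusted p under 0.05 without MASH replicate 1 and 2). Without the nuclei of highest doublet score, 55 genes were higher and 63 lower, and 67 of the 98 remained.

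The lipid-associated macrophage list held several of the called genes. Of 23 listed genes tested, 9 were called higher (against 1.1% of all genes) and 0 lower, and all 23 had a positive log2 fold change, with a median of 0.95. These 9 were Fabp5, Atp6v0d2, Emp1, Itgax, Ctsd, Lpl, Cd63, Gpr137b and Lgals3. The list was chosen with earlier results of these data known, so its direction is not independent evidence. On the MASH libraries only, 16 of 24 tested were called higher, against 267 of all 7812 genes tested.

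Fabp5, Lpl and Abcg1 were the called genes of lipid handling. Fabp5, a carrier of fatty acids in the cytosol, stood at 65.3 and 99.5 TMM-scaled CPM in LAM nuclei of MASH replicates 1 and 2 against 7.44 and 12.8 in Kupffer-gene nuclei, a log2 fold change of 3.001 (SE 0.51, edgeR adjusted p 0.000222). Lpl stood at 1237 and 2019 CPM against 554 and 733, a log2 fold change of 1.30 (SE 0.29, edgeR adjusted p 0.00838). Both LAM libraries lay above both MASH Kupffer-gene libraries for these genes, but Fabp5 in chow Kupffer-gene nuclei, at 28.0 to 95.6 CPM, overlapped with LAM nuclei. Fabp5 without TMM scaling was at 51.5 to 66.5 CPM in endothelial and 32.5 to 55.1 in hepatocyte nuclei of chow, and at 12.1 and 14.7 in endothelial nuclei of MASH. Abcg1, which exports cholesterol to lipoproteins, reached 286 and 298 CPM against 98.6 and 96.1, a log2 fold change of 1.58 (SE 0.29, edgeR adjusted p 0.000626). These were the 3 calls among 23 tested genes of lipid uptake, storage and efflux, all higher (against 1.1% of all genes), with a list median of 0.28. Fabp5 and Lpl are also on the lipid-associated macrophage list. The others did not pass. Soat1, which esterifies cholesterol for storage, had a log2 fold change of 1.09 (edgeR adjusted p 0.0737), and Plin2, which coats lipid droplets, of 0.11 (edgeR adjusted p 0.96).

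Lysosomal genes were the second group, which shares Ctsd with the lipid-associated macrophage list. Of 29 tested, 4 were higher (against 1.1% of all genes) and 0 lower, 27 had a positive log2 fold change and the median was 0.53. Among the calls were Ctsd (cathepsin D, the main aspartic protease of lysosomes), Gusb, which cleaves sugars from proteoglycans, and Atp6v1c1. Ctsd stood at 1057 and 1179 CPM in LAM and 476 and 544 CPM in Kupffer-gene nuclei, a log2 fold change of 1.13 (SE 0.28, edgeR adjusted p 0.0279). Ctsd lost the call without the nuclei of highest doublet score. Atp6v1c1 and Atp6v0d2 encode subunits of the V-ATPase, the pump that acidifies lysosomes. Atp6v0d2 stood at 82.8 and 173 CPM in LAM nuclei, at 7.44 and 16.0 in MASH Kupffer-gene nuclei and at 0 CPM in all 3 chow Kupffer-gene sums. Its log2 fold change over MASH Kupffer-gene nuclei was 3.38 (SE 0.47, edgeR adjusted p 9.22e-06). Other V-ATPase subunits, picked after their values were seen, were Tcirg1 (log2 fold change 1.31, edgeR adjusted p 0.00588) and Atp6v0a1 (1.60, edgeR adjusted p 0.000594). Mfsd12, which carries cysteine into lysosomes, rose by 2.51 (SE 0.35, edgeR adjusted p 9.22e-06).

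Surface and vesicle proteins of the list rose as well. Lgals3 (galectin-3) stood at 296 and 359 CPM in LAM nuclei against 70.7 and 73.7, a log2 fold change of 2.20 (SE 0.36, edgeR adjusted p 0.000163). Cd63, a tetraspanin of late endosomes, had a log2 fold change of 1.66, Gpr137b, a lysosomal membrane protein, of 2.27, and Itgax (the integrin CD11c) of 2.17. Emp1, a membrane protein, rose most of the genes named against Kupffer-gene nuclei, by 3.81 (SE 0.67, edgeR adjusted p 0.000407), from 4 UMIs over both Kupffer-gene sums to 72 over both LAM sums. Detection was sparse for most of them. After thinning every nucleus to 500 UMIs, Lgals3 was seen in 13.5% and 19.1% of LAM nuclei and in 3.49% and 4.15% of Kupffer-gene nuclei, and Lpl in 37.8% and 47.5% against 23.5% and 26.9%.

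**Figure D3:**
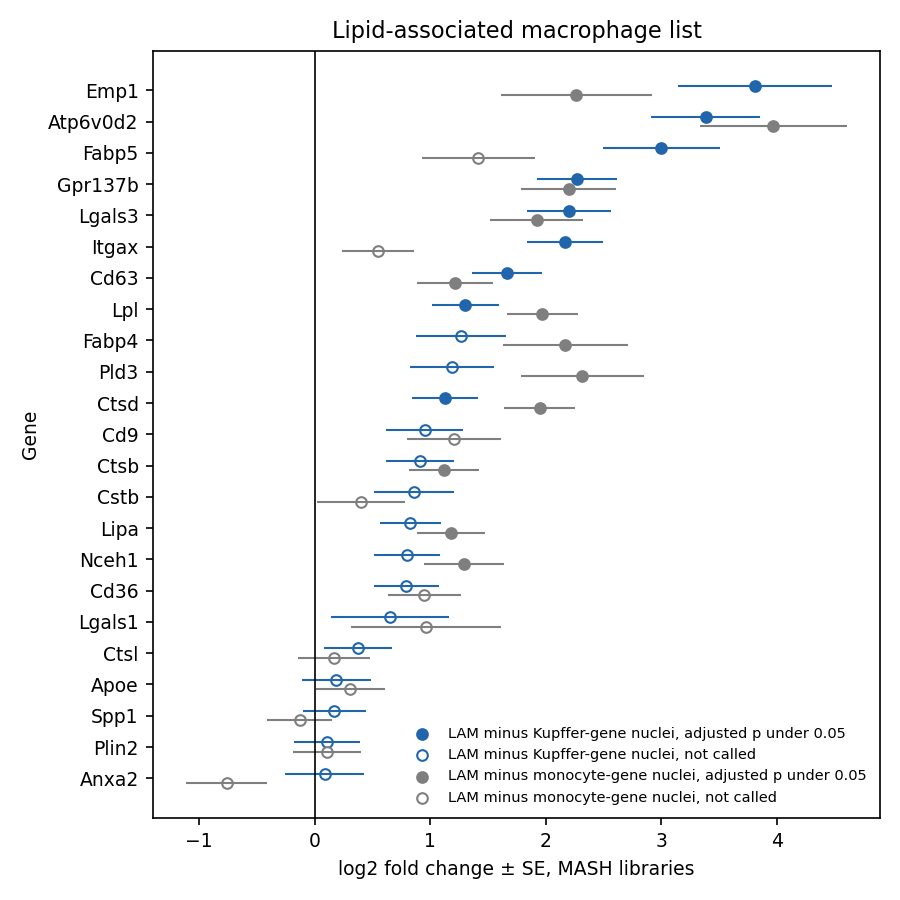
Log2 fold change (x axis, bars give the SE) of the 23 tested genes of the lipid-associated macrophage list (y axis) between LAM and Kupffer-gene nuclei (blue) and between LAM and monocyte-gene nuclei (grey) of the MASH libraries. Filled points passed an adjusted p under 0.05. Both contrasts use the same LAM sums, and Emp1, Atp6v0d2 and Fabp5 lie farthest to the right against Kupffer-gene nuclei.

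Several genes that act on the matrix or on other cells were also higher in LAM than in Kupffer-gene nuclei. Among 11 tested matrix proteases and inhibitors, Mmp13 (a collagenase) and Plau (urokinase) were called higher and 0 lower. Of all genes tested, 1.1% were called higher. Mmp13 stood at 148 and 51.6 CPM against 35.3 and 22.4, a log2 fold change of 1.79 (SE 0.41, edgeR adjusted p 0.011). Of 12 tested growth factors and cytokines, Pdgfb, a growth factor for hepatic stellate cells, was the only call, at 153 and 160 CPM against 48.4 and 64.1 (log2 fold change 1.49, SE 0.31, edgeR adjusted p 0.00359). Tgfb1 had a log2 fold change of 0.84 (edgeR adjusted p 0.161). C3ar1, the receptor for complement fragment C3a, was the call among 25 phagocytosis genes (1.62, edgeR adjusted p 0.0044). Pkm and Hk3 were the calls among 13 genes of glycolysis and hypoxia, and Cd68, a lysosomal glycoprotein of macrophages, among 12 macrophage core genes. Mmp13, Pkm, Hk3 and Cd68 lost the call without the nuclei of highest doublet score. The remaining genes named for the size of their rise were Slc6a8 (a creatine transporter, 3.18), Dpep2 (a dipeptidase, 2.80), Ahnak2 (2.73), the stress-induced transcription factor Atf3 (2.58) and Ptafr, the receptor for platelet-activating factor (2.39). Dpep2, Mfsd12, Hk3 and Pdgfb overlap genes on the other strand, and whether reads were counted by strand was not stated in the sources used here. Dpep2 also overlaps another entry of the same name on the same strand.

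Spp1 was not higher in LAM nuclei, although the gene is often used to mark them. Its level was 319 and 568 CPM without TMM scaling in LAM nuclei, 283 and 509 in Kupffer-gene nuclei, and 358 and 650 in endothelial nuclei of the same libraries. It was at 833 and 2772 CPM in cholangiocyte nuclei (Pkhd1 present, no Hnf4a, Ptprb, Col3a1 or Ptprc). The log2 fold change of LAM over Kupffer-gene nuclei was 0.17 (SE 0.28, edgeR adjusted p 0.908). Spp1 in LAM nuclei thus did not exceed its level in endothelial nuclei. For Lpl the levels were 1036 and 1875 CPM in LAM nuclei and 89.7 and 124.5 in endothelial nuclei, and for Lgals3 248 and 334 against 22.8 and 24.2.

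No gene was called by edgeR or DESeq2 in the lists of MHC class II presentation (9 tested, 1 of them at an unadjusted edgeR p under 0.05), chemokines and their receptors (11 and 5), monocytes (15 and 5), iron and haem handling (12 and 0), interferon response (5 and 0), cycling (5 and 1) or the MiT/TFE and lipid-sensing regulators (19 and 3). Over all genes, 861 of 6635 passed that unadjusted threshold, and DESeq2 called 1. Of the MHC class II genes, 8 of 9 had a positive log2 fold change, with a median of 0.53. Their list summed to 3245 and 3715 CPM without TMM scaling in LAM nuclei of MASH replicates 1 and 2, against 2176 and 2781 in Kupffer-gene nuclei. The median was 0.57 for chemokines and their receptors (7 of 11 positive) and -0.34 for the interferon response (0 of 5 positive). Mitf, a member of the MiT/TFE family, stood at 87.8 and 173 CPM in LAM and 65.1 and 76.9 in Kupffer-gene nuclei (log2 fold change 0.82, SE 0.31, edgeR adjusted p 0.199). Ccl2, the chemokine that attracts monocytes, stood at 20.1 and 29.5 CPM against 67.0 and 92.9 (-1.56, SE 0.46, edgeR adjusted p 0.0707). Of the 73 higher genes, 54 had a promoter window in the RefSeq table. The E-box occurred in 6 of them (11.1%, against 10.7% of 5288 tested genes with a window and 6.02% of all 32851 windows of the same length), the M-box core in 5 (9.26%, against 2.42% and 3.25%) and the AP-1 site in 8 (14.8%, against 4.43% and 4.46%). Among the latter were Emp1, Itgax, Cd68, C3ar1 and Mmp13. These are counts of letters in a window, with no test.

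Among the 25 lower genes, the largest fall was in Hba-a2, which encodes the alpha chain of haemoglobin and fell by 3.72 on the log2 scale. This rested on MASH replicate 1, with 32.6 CPM in LAM and 698 CPM in Kupffer-gene nuclei, while in MASH replicate 2 the levels were 11.1 and 22.4 CPM, and the populations overlapped. The log2 ratios within the libraries were -4.34 and -0.91. In MASH replicate 1, without TMM scaling, Hba-a2 also stood at 542 CPM in stellate or fibroblast nuclei, 155 in hepatocyte nuclei and 18.8 in endothelial nuclei. Hba-a2 is nearly identical to Hba-a1, so its reads cannot be assigned with certainty. Next came Tcea3 (log2 fold change -2.15), Tnfaip8l1 (-2.01), the snoRNA host gene Snhg11 (-2.00), the transcription factor Tbx3 (-1.80), Acot12 (-1.57), Larp1b (-1.54), Serping1, which encodes the C1 inhibitor (-1.52), Gm32063 (-1.46) and Gm13775 (-1.42). Serping1 stood at 30.1 and 18.4 CPM in LAM nuclei, 72.5 and 67.3 in MASH Kupffer-gene nuclei and 187 to 230 in chow Kupffer-gene nuclei. Tbx3 and Acot12 overlap antisense genes.

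No gene of the hepatocyte, stellate, endothelial, cholangiocyte, T and NK, B and plasma or neutrophil lists was called by edgeR or DESeq2, and at most 1 per list passed an unadjusted p under 0.05. Summed hepatocyte genes reached 11820 and 6088 CPM in LAM nuclei and 13500 and 7283 in Kupffer-gene nuclei, and summed cholangiocyte genes 447 and 568 against 703 and 840. T and NK cell genes summed to 52.5 and 41.1 CPM against 75.0 and 141, and B and plasma cell genes to 54.6 and 92.4 against 130 and 175. These 4 sums were lower in LAM nuclei of both libraries, as were stellate cell genes (439 and 503 CPM against 449 and 698). Endothelial genes were higher in both, at 267 and 284 CPM against 217 and 256, and so were neutrophil genes, at 109 and 140 against 65.6 and 126. Their part in the differences was not tested. Macrophage core genes summed to 3485 and 4362 CPM against 2563 and 3130, and 11 of 12 had a positive log2 fold change. Cd5l, which admits nuclei to the Kupffer-gene group, also occurred in 13.3% and 5.31% of endothelial nuclei.

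Many LAM nuclei held Kupffer cell genes. At least 1 of Clec4f, Cd163, Cd5l and Vsig4 was present in 179 (69.1%) and 185 (54.3%) of LAM nuclei of MASH replicates 1 and 2. Cd5l, a secreted protein of tissue macrophages, was seen in 62.2% and 51.0%, and Clec4f, a lectin of Kupffer cells, in 30.5% and 18.5%. Endothelial nuclei held Clec4f in 6.91% and 3.19%. Cd163, the haemoglobin scavenger receptor, was in 0 and 1 LAM nuclei and in 8 and 0 of the 344 and 193 MASH Kupffer-gene nuclei. The Kupffer identity list, which shares no gene with the rule, summed to 2729 and 3270 CPM in LAM nuclei and 2791 and 3347 CPM in Kupffer-gene nuclei, against 4401 to 7641 CPM in chow Kupffer-gene nuclei. Of its 22 tested genes, 0 were higher and 1 lower (against 0.377% of all genes), with a median log2 fold change of -0.29. The call was C6, a complement component, at 121 and 55.3 CPM in LAM, 244 and 186 in MASH Kupffer-gene and 580 to 709 in chow Kupffer-gene nuclei (log2 fold change -1.33, SE 0.33, edgeR adjusted p 0.02). Slc40a1, the iron exporter ferroportin, stood at 801 and 735 CPM against 794 and 942, and Clec1b, a receptor of Kupffer cells for podoplanin, at 239 and 335 against 182 and 243. The populations overlapped for both. Timd4, a phosphatidylserine receptor of long-resident Kupffer cells, had 1 UMI over both LAM sums and 11 over both MASH Kupffer-gene sums, while chow Kupffer-gene sums stood at 65.8 to 270 CPM.

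**Figure D4:**
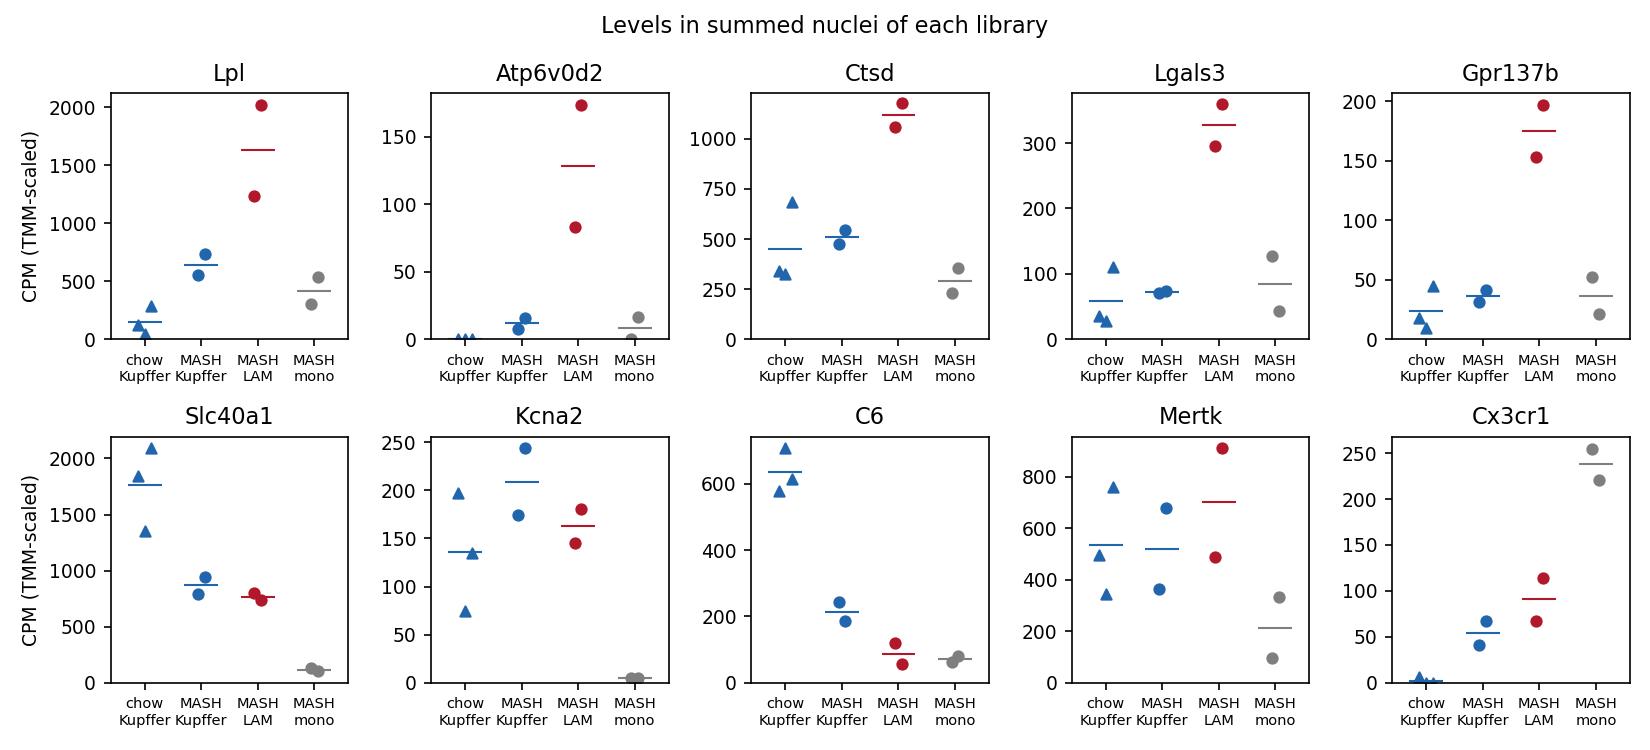
Level (y axes, TMM-scaled CPM) of 10 genes in summed nuclei of each library: Kupffer-gene nuclei of the 3 chow libraries (triangles) and Kupffer-gene, LAM and monocyte-gene nuclei of the 2 MASH libraries (circles). Lines give the mean. Lpl, Atp6v0d2, Ctsd, Lgals3 and Gpr137b were highest in LAM nuclei, Slc40a1 and Kcna2 overlapped between LAM and MASH Kupffer-gene nuclei and were low in monocyte-gene nuclei, and C6 was highest in chow Kupffer-gene nuclei.

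The second comparison set LAM nuclei beside monocyte-gene nuclei, of which the MASH replicates held 134 and 137 (the same filters, at least 1 UMI of Ccr2, F13a1, Vcan or Chil3, and none of the marker, Kupffer, lymphoid or dendritic genes). It shares the LAM sums with the first, so the values stand side by side and no overlap is given. Of 6635 genes, 154 (2.32%) were higher and 45 (0.678%) lower in LAM nuclei (199 or 3% in either direction). The MASH libraries only gave 421 calls, the fit without the block 22, DESeq2 52 and the fits without either MASH library 0 (38 and 72 genes at an unadjusted p under 0.05). Of the Kupffer identity list, 9 of 22 were higher (against 2.32% of all genes) and 0 lower, with a median log2 fold change of 1.498 beside 0 for all genes. Monocyte-gene nuclei were picked to hold no Kupffer gene of the rule, so this direction was favoured by the choice and is not independent evidence. Slc40a1 stood at 801 and 735 CPM in LAM nuclei against 127 and 108 in monocyte-gene nuclei (2.70, SE 0.36, edgeR adjusted p 1.21e-06). Kcna2, a potassium channel, had 156 UMIs in LAM nuclei and 2 in monocyte-gene nuclei, a ratio of 31.2 per UMI sequenced (95% counting interval 8.48 to 260). Il18bp, the decoy receptor for interleukin-18, had a log2 fold change of 3.06 (edgeR adjusted p 7.23e-05) and Clec1b of 2.91 (edgeR adjusted p 6.42e-06). Clec1b lies within a span shared with Clec9a on the same strand.

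The largest rises over monocyte-gene nuclei were genes those nuclei lacked altogether. Mmp27, a matrix metalloprotease, had 132 UMIs over both LAM sums and 0 over both monocyte-gene sums, which is at least 17.6-fold higher when 3 counts are taken as the floor over the group. Epb41l3, a membrane skeleton protein, had 91 and 0 UMIs, at least 12.1-fold higher, and Ksr2, a scaffold of the MAP kinase pathway, 85 and 0, at least 11.3-fold higher. All 3 were also present in Kupffer-gene nuclei, at 61.4 and 83.3 CPM for Mmp27, 52.1 and 86.5 for Epb41l3 and 40.9 and 32.0 for Ksr2, and none was called there. Slc6a8 had 55 and 1 UMIs, a ratio of 22.0 (95% counting interval 3.78 to 884).

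Of 23 tested genes of the lipid-associated macrophage list, 12 were higher (against 2.32% of all genes) and 0 lower, with a median log2 fold change of 1.21. Ctsd stood at 231 and 355 CPM in monocyte-gene nuclei (log2 fold change 1.95, SE 0.31, edgeR adjusted p 3.62e-05) and Lpl at 302 and 533 CPM (1.97, SE 0.31, edgeR adjusted p 3.13e-05). Itgax, at 99.1 and 156 CPM in monocyte-gene nuclei, had a log2 fold change of only 0.55 (edgeR adjusted p 0.517), and Fabp5 of 1.42 (edgeR adjusted p 0.128). Mertk, a receptor for dying cells, rose by 1.81 and C1qc, a chain of complement C1q, by 1.54 (edgeR adjusted p 0.000249 and 0.00271). Mitf, not called against Kupffer-gene nuclei, was called here (1.34, SE 0.39, edgeR adjusted p 0.0454). Of 11 tested matrix proteases and inhibitors, 1 was higher (against 2.32% of all genes) and 0 lower, with a median of 0.91. Of 12 tested growth factors and cytokines, 0 were higher and 1 lower (against 0.678% of all genes), with a median of -0.35.

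Of 15 monocyte genes tested, 7 were lower (against 0.678% of all genes) and 0 higher, with a median log2 fold change of -1.87. Monocyte-gene nuclei were picked by UMIs of Ccr2, F13a1, Vcan or Chil3, so this direction was favoured by the choice and is not independent evidence. The calls were Ly6c2, Plac8, S100a4, S100a6, Ms4a4c, Itgam and Cx3cr1. With nuclei limited to under 5% mitochondrial UMIs, S100a6 and Cx3cr1 kept the call and the others lost it. Ly6c2 and Plac8 mark classical monocytes. Ly6c2 stood at 12.6 and 1.84 CPM in LAM nuclei and 104 and 53.8 in monocyte-gene nuclei (-3.45, SE 0.65, edgeR adjusted p 0.000501). Plac8 rested on MASH replicate 1, with 260 and 5.38 CPM in the monocyte-gene nuclei of the 2 libraries and 20.1 and 7.37 in LAM nuclei, and its log2 fold change was 0.39 without MASH replicate 1. Cx3cr1, a chemokine receptor of patrolling monocytes, was at 67.8 and 114 CPM in LAM nuclei, 255 and 221 in monocyte-gene nuclei and 40.9 and 67.3 in MASH Kupffer-gene nuclei (LAM over monocyte-gene -1.40, SE 0.31, edgeR adjusted p 0.00351). The other named falls were Gm15987, Bcl11a, Gpr141 and Gm36723, with log2 fold changes of -3.77 to -3.21. No MHC class II gene of 9 tested was called by edgeR here, and 0 passed an unadjusted p under 0.05. Of these 9 genes, 1 had a positive log2 fold change, and the median was -0.18. Without TMM scaling, their list summed to 4158 and 4733 CPM in monocyte-gene nuclei, above LAM nuclei in both libraries (3245 and 3715).

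LAM nuclei with and without a Kupffer gene were compared to see how the members vary. Each library's LAM sum was split into 179 and 80 nuclei in MASH replicate 1 and 185 and 156 in MASH replicate 2. Median depth was 1379 and 1584 UMIs with a Kupffer gene and 1254.5 and 1276.5 without. Of 6846 genes, 12 (0.175%) were higher and 3 (0.0438%) lower in the nuclei with a Kupffer gene (15 or 0.219% in either direction). The MASH libraries only gave 52 calls, the fit without the block 1, DESeq2 3 and the fits without either MASH library 0 (13 genes each at an unadjusted p under 0.05). Of 24 list genes tested, 0 were called by edgeR in either direction and 4 passed an unadjusted p under 0.05 (Spp1, Cd9 and Cstb lower with a Kupffer gene, Gpr137b higher, named after their values were seen), with a median log2 fold change of -0.10 beside -0.014 for all genes. At an unadjusted p under 0.05, 324 of all 6846 genes passed. Lpl stood at 1208 and 1745 CPM with a Kupffer gene and 1173 and 2279 without, and Lgals3 at 259 and 362 against 364 and 331.

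Kcna2, Slc40a1 and Clec1b followed the split. Kcna2 stood at 182.5 and 292 CPM with and 27.3 and 8.72 without a Kupffer gene (4.01, SE 0.53, edgeR adjusted p 2.21e-08). Slc40a1 stood at 939 and 1069 against 327 and 209 (1.96, SE 0.31, edgeR adjusted p 4.87e-06) and Clec1b at 265 and 460 against 136 and 135 (1.46, SE 0.33, edgeR adjusted p 0.0157). These were the 3 calls, all higher (against 0.175% of all genes), among 22 Kupffer identity genes, whose median was 0.93. The split was itself made on Kupffer cell genes, so this direction was favoured by the choice and is not independent evidence. Rims3 had 29 and 0 UMIs, at least 5.15-fold higher with a Kupffer gene. Tmc8 had 36 and 1 UMIs, a ratio of 19.2 (95% counting interval 3.23 to 779), and Dysf (dysferlin, which takes part in membrane repair) 50 and 2, a ratio of 13.3 (3.50 to 113). Tspan15 had a log2 fold change of 2.63 (SE 0.56, edgeR adjusted p 0.00619). Tmc8 and Dysf lost the call without the nuclei of highest doublet score. Lower with a Kupffer gene were Fxyd5 (-1.87), Cd93 (-1.86) and the transcription factor Mef2c (-1.52). Cd93, a receptor of phagocytes and endothelium, stood at 46.5 and 82.2 CPM with and 145.5 and 314 without a Kupffer gene. C6 did not differ along the split beyond its error (-0.09, SE 0.43), while Cx3cr1 (-1.51, SE 0.39, edgeR adjusted p 0.0585) and Ptgs1 (1.68, SE 0.44, edgeR adjusted p 0.0698) missed the threshold.

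**Figure D5:**
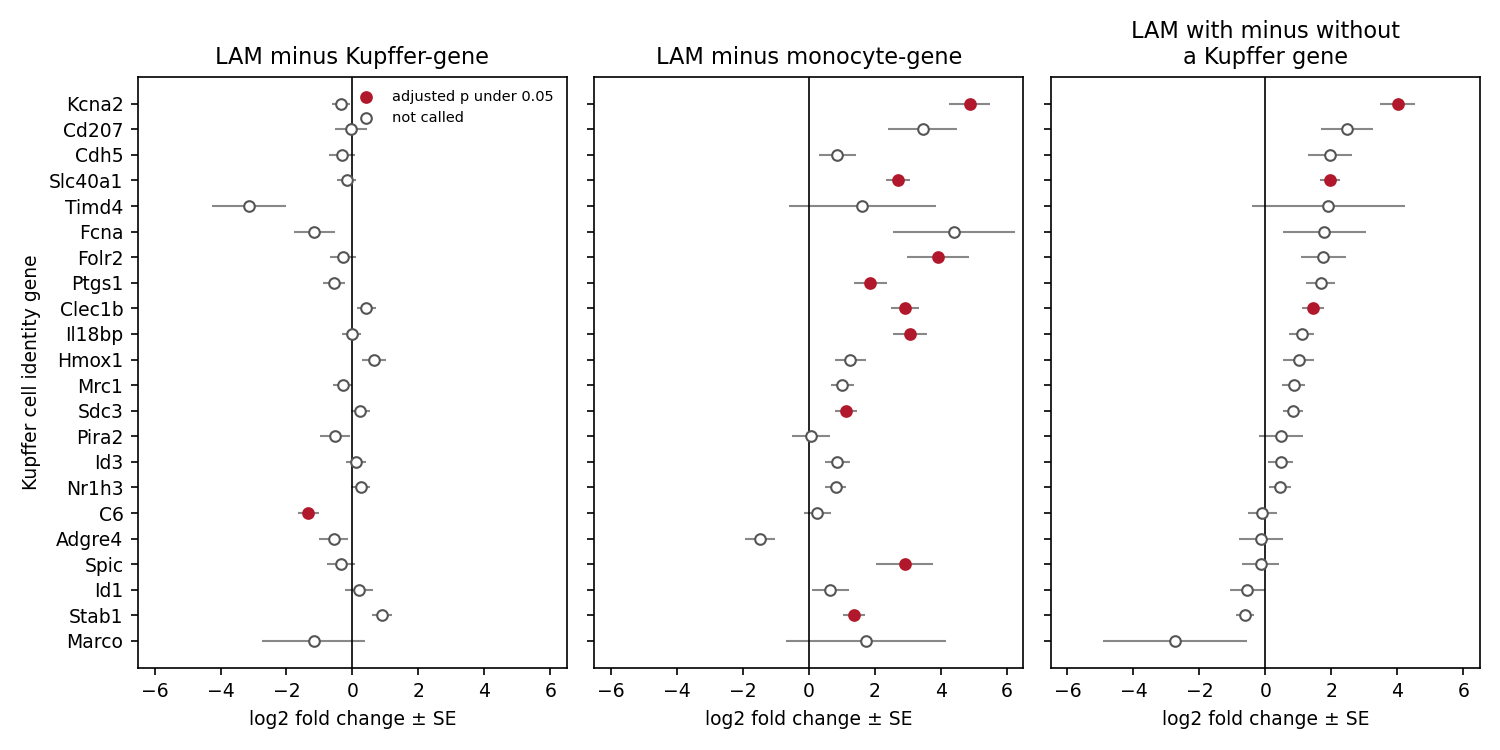
Log2 fold change (x axes, bars give the SE) of 22 Kupffer cell identity genes (y axis) between LAM and Kupffer-gene nuclei, between LAM and monocyte-gene nuclei, and between LAM nuclei with and without a UMI of Clec4f, Cd163, Cd5l or Vsig4, all in the MASH libraries. Red points passed an adjusted p under 0.05, which were 1, 9 and 3 of the 22.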

How the data were processed

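Single-nucleus 3′ RNA libraries of liver (3 chow and 2 MASH libraries) were analysed as the UMI count matrices that the authors deposited. These were made with Cell Ranger 8.0.1 on mm10 (GRCm38) with intronic reads excluded. Values are whole UMI counts per gene (32285 genes) and nucleus, not normalized. The study removed doublets before its own analysis. The deposited matrices were taken as they are, and doublets were scored with Scrublet in scanpy 1.11.5 and left in, except in one alternative. UMI counts were summed per library and population in sums of at least 20 nuclei, which left out all chow LAM sums and the monocyte-gene sum of chow replicate 2 (12 nuclei). They were tested two-sided with edgeR 4.0.16 (quasi-likelihood, TMM, filterByExpr, Benjamini-Hochberg) in R 4.3.3. Chow sums entered to share the estimate of the spread. The populations compared come from the same libraries, so the library was a block. The standard error is the log2 fold change divided by the square root of F. The 27 genes of the rules stayed in the fit and out of all counts. The members and gene lists were chosen with earlier results of these data known. Beyond listed genes, the text names the 10 (first contrast) or 5 largest changes each way among calls with the same sign in both MASH libraries and at least 20 UMIs. On simulated counts with 100 changed genes per fold size, the contrast with Kupffer-gene nuclei recovered 76% of 4-fold and 14% of 2-fold changes with 4 false calls among 6663 genes tested. The contrast with monocyte-gene nuclei recovered 62% and 12% with 1 false call among 6532 genes tested. The simulated populations shared the same mean profile, a fixed dispersion and library effects, and apart from depth differed only in the changed genes. They held no neutrophil-rich chow sum, so these false calls hold for the simulated setting only. Whether reads were counted by strand is not given in the sources used here. Depth per population ranged from 1460 to 639832 UMIs. Alternatives covered DESeq2 1.42.0, no block, other size factors, filters, nucleus limits, thinning to 500 UMIs, Storey q-values, and leaving out each library.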

Additional observations from a re-analysis of the deposited data

Results flagged for a closer look

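Nuclei that the rule left out also held the marker genes in MASH and hardly in chow, which is why they are given here. At least 2 summed UMIs of Gpnmb, Trem2, Mmp12 and Adam8 were found in 2.524% of hepatocyte nuclei of MASH replicate 1 and 2.075% of MASH replicate 2, against 0.0236% to 0.0413% in chow. In endothelial nuclei the shares were 3.457% (13 of 376) and 1.821% (12 of 659), against 0 in the 3 chow libraries (of 654, 316 and 363 nuclei). Whether these UMIs were free RNA, doublets or expression was not tested.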

How the results depend on the processing

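The difference between MASH and chow in the share of LAM nuclei, 2.45 percentage points, was 4.261 with at least 1 marker UMI, 1.546 with at least 3, 1.459 with under 5% mitochondrial UMIs and 1.009 after thinning, and from 1.976 to 2.932 without 1 library. Populations were paired by library. Without the replicate block, calls were 2 against Kupffer-gene nuclei (98 with it), 22 against monocyte-gene nuclei (199) and 1 between LAM nuclei with and without a Kupffer gene (15). DESeq2 gave 1, 52 and 3 calls and thinning to 500 UMIs 10, 67 and 9. The MASH libraries only gave 520, 421 and 52. Leaving out 1 library gave from 0 to 554, from 0 to 465 and from 0 to 59 calls. The 0 came without either MASH library, when only 1 residual degree of freedom was left, and the highest counts without chow replicate 1 or 3, when that degree of freedom was gone. Under 5% mitochondrial UMIs gave 242 calls against Kupffer-gene nuclei, and at least 3 marker UMIs 171. Between LAM nuclei with and without a Kupffer gene, a stricter filter gave 6 calls, leaving out the highest doublet scores 5 and at least 3 marker UMIs 5. The cause was not tested. Plac8 against monocyte-gene nuclei turned to a log2 fold change of 0.389 without MASH replicate 1, and its values without 1 library reached -3.698. Size factors of DESeq2 in edgeR, no filter and Storey q-values changed no total count by over 1.5 times, nor did leaving out nuclei with a lymphoid or dendritic gene, an alternative chosen after seeing the data. Of the counts by direction, the lower genes against Kupffer-gene nuclei went from 25 to 40 with those size factors, and the genes lower with a Kupffer gene from 3 to 1 with no filter.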
